A study of Mus musculus with 23 samples.

Results

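The 32 genes described here are transcribed in dividing cells, and their transcripts were followed through single cells of mouse bone marrow. They were chosen by symbol among the 23536 gene rows of the count table, and all 32 were found. They were kept in 3 groups by their known role. The S-phase group has 15 genes (Mcm2, Mcm3, Mcm5, Mcm6, Mcm7, Cdt1, Gins2, Ccne1, Ccne2, Pcna, Rrm1, Rrm2, Tyms, Hells and Uhrf1). The mitotic group has 14 genes (Ccnb1, Ccnb2, Cdk1, Aurka, Aurkb, Plk1, Birc5, Ube2c, Cdc20, Tpx2, Nusap1, Cenpf, Mki67 and Top2a). The last 3, Stmn1, Hmgb2 and Tubb5, are abundant in dividing cells but also act elsewhere, and were kept apart from both.

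Cells came from 2 kinds of library made with CEL-seq, which counts the 3′ ends of messenger RNA. In 17 libraries, clumps of mostly 2 to 4 cells from gently flushed marrow were taken apart with needles into single cells. In 4 libraries, single hematopoietic stem cells (HSC) were sorted as Lineage- Kit+ Sca1+ CD150+ CD48-. The 2 kinds are compared with each other, and classes of dissected cells along the erythroid and neutrophil lines among themselves. The labels name no strain, age, genotype, treatment or animal for either kind, so the spread behind each p-value is that between libraries and may not be biological.

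DNA replication is prepared when Cdt1 loads the ring-shaped helicase of the Mcm proteins on DNA, and it starts after cyclin E and the GINS complex act on the loaded rings. Ribonucleotide reductase (Rrm1 and Rrm2) and thymidylate synthase (Tyms) then supply nucleotides, Pcna clamps the polymerase to its template, and Uhrf1 helps to copy DNA methylation. In mitosis, cyclin B with Cdk1 and the Plk1 and Aurora kinases drive chromosomes to the spindle, and Ube2c and Cdc20 act in the anaphase-promoting complex that ends it. Long-term HSC of adult marrow are known to divide rarely, whereas erythroblasts and early neutrophil precursors divide several times before they stop.

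The promoters of the genes are shown first because short letter patterns known from cell cycle promoters stood in part of them, CHR letters in 6 of 12 mitotic and E2F letters in 4 of 13 S-phase promoters. RefSeq promoters on GRCm38.p6 were found for 27 of the genes, and the 250 bases before each start were searched on both strands. Capitals mark TTTGAA, the core of the cell cycle homology region (CHR) known from late cell cycle genes, CCAAT, the letters known to be bound by NF-Y, and 4 spellings of an E2F site (TTTGGCGC, TTTCCCGC, TTTGGCGG and TTTCGCGC). Matches on the opposite strand are in capitals too, as their reverse complements, and where E2F spellings overlap the whole stretch is. Each sequence below is the last 180 bases before the RefSeq start, 5′ to 3′ on the gene's own strand: Mcm5 at chr8:75109329-75109508 (plus strand), Mcm6 at chr1:128359706-128359885 (minus), Top2a at chr11:99024190-99024369 (minus), Mki67 at chr7:135716380-135716559 (minus) and Cdk1 at chr10:69352913-69353092 (minus). Those of Mcm5, Mcm6, Top2a and Mki67 lie outside the gene in GENCODE vM21, and that of Cdk1 ends inside its annotated 5′ end.
Mcm5: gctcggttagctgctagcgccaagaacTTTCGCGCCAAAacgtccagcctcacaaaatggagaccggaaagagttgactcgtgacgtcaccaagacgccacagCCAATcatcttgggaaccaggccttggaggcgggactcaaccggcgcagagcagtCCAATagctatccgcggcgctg
Mcm6: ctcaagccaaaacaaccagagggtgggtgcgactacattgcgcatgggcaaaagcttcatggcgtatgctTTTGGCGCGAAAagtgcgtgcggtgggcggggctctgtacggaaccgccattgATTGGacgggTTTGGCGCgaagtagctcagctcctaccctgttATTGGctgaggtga
Top2a: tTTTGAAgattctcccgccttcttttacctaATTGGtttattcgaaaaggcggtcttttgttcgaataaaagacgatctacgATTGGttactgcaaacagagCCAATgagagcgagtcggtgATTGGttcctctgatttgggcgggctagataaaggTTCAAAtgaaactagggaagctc
Mki67: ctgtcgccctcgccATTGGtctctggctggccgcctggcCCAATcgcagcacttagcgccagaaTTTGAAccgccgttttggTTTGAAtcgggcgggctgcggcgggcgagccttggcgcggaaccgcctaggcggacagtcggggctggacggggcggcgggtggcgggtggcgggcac
Cdk1: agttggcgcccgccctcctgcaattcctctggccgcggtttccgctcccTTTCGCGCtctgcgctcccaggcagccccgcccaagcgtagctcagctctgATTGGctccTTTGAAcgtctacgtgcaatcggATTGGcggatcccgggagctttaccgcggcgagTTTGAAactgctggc

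The mitotic promoters with the CHR letters were 6 (Ccnb2, Cdc20, Cdk1, Mki67, Top2a and Ube2c), and 1 of 13 S-phase promoters had them, against 16.3% of all 27025 promoters. CHR and CCAAT letters stood together in the same 6 mitotic promoters and in 1 S-phase promoter, against 5.73% of all promoters. The E2F letters stood in 4 S-phase promoters (Hells, Mcm5, Mcm6 and Mcm7) and in 1 mitotic promoter (Cdk1), against 2.002% of all. CCAAT alone was common to both groups, in 9 of 13 S-phase and 10 of 12 mitotic promoters, against 34.5% of all. Most S-phase promoters lacked the E2F letters, and no difference between the groups was tested. These are matches of letters and do not show that a factor binds there.

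Of 1915 cells in the table, 952 had at least 1000 estimated transcripts and were kept. The dissected libraries gave 6 to 73 kept cells and 9032 to 313488 transcripts each, and the sorted libraries 2 to 91 cells and 3119 to 238770 transcripts. Sorted HSC replicate 1 has only 2 kept cells, so sums and levels per library are given with it named. No 2 kept cells had identical profiles. Dissected cells were clustered without 136 cell cycle genes, the 32 among them, and classes were named from marker genes. The 75 early erythroblast-like and 160 late erythroblast-like cells form the erythroid line, and the 67 promyelocyte-like, 102 myelocyte-like and 94 mature neutrophil-like cells the neutrophil line. Of the dissected cells, 60 formed a cluster that could not be named.

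The class names were checked against marker genes cell by cell. Naming each cell from its own detected markers kept 98 of 102 myelocyte-like, 61 of 67 promyelocyte-like and 64 of 75 early erythroblast-like cells in their class. It kept 98 of 160 late erythroblast-like cells and named 59 of them early, and it kept 30 of 94 mature neutrophil-like cells and named 61 of them myelocyte-like, so these 2 classes are less certain. The 14 HSC genes made up a median of 0.744% of a sorted cell's transcripts (0.132 to 1.97%), and none of the 14 was at 0. Globin transcripts took a median of 20.6% of the transcripts of a late erythroblast-like cell and 2.44% of an early one. Early and late cells also differed in depth, with medians of 3510 and 1567 transcripts per cell, and mature neutrophil-like cells had a median of 1556.

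The mean sums of the 2 groups were highest in different classes. Levels are counts per 1000000 transcripts of a library's cells of a class (CPM), over libraries with at least 5 cells of it (all 4 libraries for HSC), and since CEL-seq counts 1 end of each transcript they do not scale with gene length. The S-phase group was highest in early erythroblast-like cells, at 8889 ± 1369 CPM (SD, n = 7 libraries), and lowest in mature neutrophil-like cells, at 557 ± 292 CPM (n = 8). The mitotic group was highest in late erythroblast-like cells, at 14005 ± 2773 CPM (n = 10), with a lowest library of 10532, a median of 13869 and a highest of 20331. Its 10 late libraries lay above all 7 early ones, which ran from 3940 over a median of 6648 to 7783 CPM (6000 ± 1348).

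**Figure D1:**
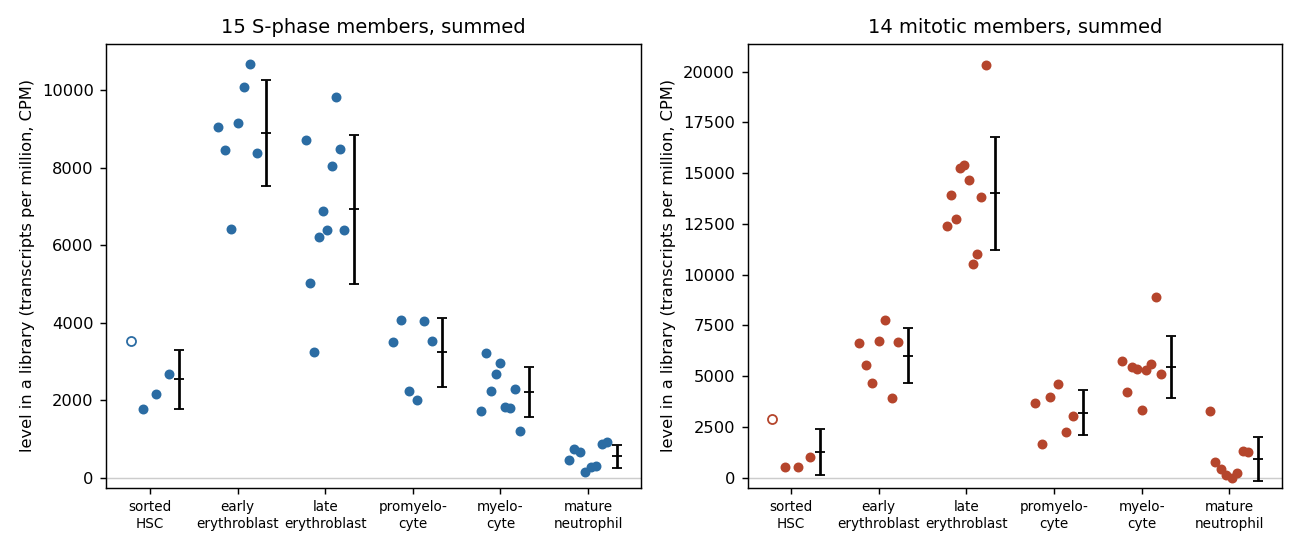
Summed level of the S-phase members (left) and of the mitotic members (right) in CPM (linear axis), by class. Each point is a library with at least 5 cells of the class, the open points are sorted HSC replicate 1 with 2 cells, and the black marks beside them are the mean and SD over libraries. The S-phase sum is highest in early erythroblast-like cells (mean 8889) and the mitotic sum in late erythroblast-like cells (mean 14005).

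In the sorted HSC, the S-phase sum was 3537 CPM in replicate 1, 1777 in replicate 3, 2169 in replicate 4 and 2684 in replicate 5 (2542 ± 761, n = 4). The mitotic sum was 2902, 543, 540 and 1017 CPM in the same order (1251 ± 1124). Replicate 1 was the highest in both, and without it the means were 2210 ± 455 and 700.2 ± 274 CPM (n = 3). The S-phase sums of the HSC lay below those of every early erythroblast-like library and overlapped those of promyelocyte-like cells, from 2007 over 3521 to 4080 CPM. They also overlapped those of myelocyte-like cells, from 1201 over 2236 to 3211 CPM. In order of the mean S-phase sum, late erythroblast-like cells stood second at 6924 ± 1925 CPM (n = 10), followed by promyelocyte-like cells (3236 ± 901, n = 6), HSC, myelocyte-like cells (2220 ± 648, n = 9) and mature neutrophil-like cells. Neighbours in that order overlapped in every case but the last, where the highest mature library (937 CPM) lay below the lowest myelocyte-like one. HSC stood above myelocyte-like cells only through replicate 1, since their mean without it, 2210 CPM, was just below 2220.

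The balance between the groups differed by class. For each S-phase transcript in the pooled cells there were 0.645 mitotic ones in early erythroblast-like cells and 1.70 in late ones, and the mitotic sum exceeded the S-phase sum in 0 of 7 early and 10 of 10 late libraries. In the neutrophil line the ratio was 0.973 in promyelocyte-like cells (mitotic above S-phase in 3 of 6 libraries) and 2.27 in myelocyte-like cells (9 of 9). The sorted HSC had the lowest ratio of these classes, 0.329, and none of the 4 libraries had more mitotic than S-phase transcripts.

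The first comparison asked how the genes of sorted HSC stood against all dissected cells of the marrow, with sums per library. Sorting or needle work, and in part the sequencer, go with the kind of library and cannot be told apart from the kind of cell. Every mitotic gene was lower in the HSC, while most S-phase genes did not pass the test. Of 3639 genes tested with edgeR's quasi-likelihood test, 19.2% were called lower in HSC, 11.2% higher and 30.4% in either direction (adjusted p under 0.05). Of the 32 genes, 29 passed the filter on low counts (Ccne2, Gins2 and Hells did not), 20 were lower and 0 higher. The mitotic group had 14 of 14 lower with a median log2 fold change of -3.05, the S-phase group 5 of 12 with a median of -0.62, and the median over all genes was -0.16.

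Ube2c, the ubiquitin-conjugating enzyme of the anaphase-promoting complex, fell most among the mitotic genes. It stood at 0, 12.6, 17.1 and 61.4 CPM in HSC replicates 1, 3, 4 and 5. Dissected libraries ranged from 334 over a median of 628 to 1267 CPM (n = 17), so the groups did not overlap, and the log2 fold change was -4.69 (SE 0.53, edgeR adjusted p = 1.64e-08). Mki67, which coats mitotic chromosomes and is the usual label of cycling cells, read 967 CPM in replicate 1 and 50.5, 103 and 100.5 CPM in the others. It was lower by the test, with a log2 fold change of -3.38 (SE 0.51, edgeR adjusted p = 3.15e-06), although the 2 cells of replicate 1 reached the range of the dissected libraries, 444 to 2016 CPM with a median of 827. The cyclin B kinase Cdk1 read 321, 41.96, 85.7 and 100.4 CPM in HSC, and its log2 fold change was -2.47 (SE 0.39).

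The other mitotic genes had log2 fold changes between -3.45 and -1.40. Those of the kinases and the chromosomal passenger complex were -3.45 for Birc5, -3.39 for Aurka, -3.12 for Plk1 and -3.07 for Aurkb. The B cyclins stood at -3.03 for Ccnb1 and -2.85 for Ccnb2. Of the spindle and centromere genes, Nusap1 stood at -3.22, Tpx2 at -2.41 and Cenpf at -1.40, while topoisomerase Top2a stood at -2.52 and the activator Cdc20 at -1.77. Besides Ube2c, the libraries of Ccnb2 and Tpx2 did not overlap between HSC and dissected cells. The share of all tested genes without overlap was not counted, here or in the later comparisons, so a lack of overlap is a description only.

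Among the S-phase genes, both subunits of ribonucleotide reductase were lower, and the 5 helicase genes and Tyms did not pass the test. Rrm2, its small subunit, read 321, 25.2, 129 and 50.1 CPM in the HSC and from 407 over 990.2 to 1995 CPM in dissected libraries. The groups did not overlap, and the log2 fold change was -3.91 (SE 0.52, edgeR adjusted p = 3.16e-07). Rrm1, the large subunit, changed less, by -1.53 on the log2 scale (SE 0.42, edgeR adjusted p = 0.00529). Uhrf1 (-1.29, SE 0.36) and Pcna (-1.05, SE 0.37) were also lower, with edgeR adjusted p = 0.00581 and 0.0268.

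Ccne1, a cyclin E gene, was the remaining S-phase gene called lower. The 245 HSC held 3 of its transcripts in all and the dissected cells 326, so that its level was 23.6 times higher in dissected cells (exact 95% interval 8.01 to 115, which covers counting error only). Against early erythroblast-like cells alone the ratio was 90.03 (30.2 to 442). Ccne2, the other cyclin E gene, had 0 transcripts in the 245 HSC and 10 in the 75 early erythroblast-like cells.

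None of the helicase genes of the S-phase group passed the test in HSC against dissected cells. Their log2 fold changes ran from -0.76 (Mcm7) to 0.32 (Mcm6). Mcm6 stood at 321, 295, 266 and 492 CPM in replicates 1, 3, 4 and 5, all inside the range of the dissected libraries, 0 to 495 CPM with a median of 223. Its log2 fold change was 0.32 (SE 0.36, edgeR adjusted p = 0.537). Those of Mcm2 (-0.40, SE 0.38), Mcm3 (-0.30, SE 0.35), Mcm5 (-0.48, SE 0.36) and Mcm7 (-0.76, SE 0.37) did not pass either, nor did Cdt1 (-0.21, SE 0.42) and Tyms (-0.27, SE 0.44). With SEs of this size a change of about 2 SEs could not be told from 0. Scaling by library totals in place of TMM raised the median of all genes by 0.33, and Cdt1, Mcm3, Tyms and Tubb5 then stood just above 0.

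The 3 abundant genes did not move together. Hmgb2, a chromatin protein, read 2606, 351, 163 and 604 CPM in HSC replicates 1, 3, 4 and 5, lower than in dissected cells with a log2 fold change of -2.46 (SE 0.41, edgeR adjusted p = 1.48e-05). Stmn1, which takes microtubules apart, read 2606, 729, 992 and 876 CPM and had a log2 fold change of 0.25 (SE 0.27, edgeR adjusted p = 0.507). The tubulin gene Tubb5 stood at -0.48 (SE 0.32, edgeR adjusted p = 0.255).

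**Figure D2:**
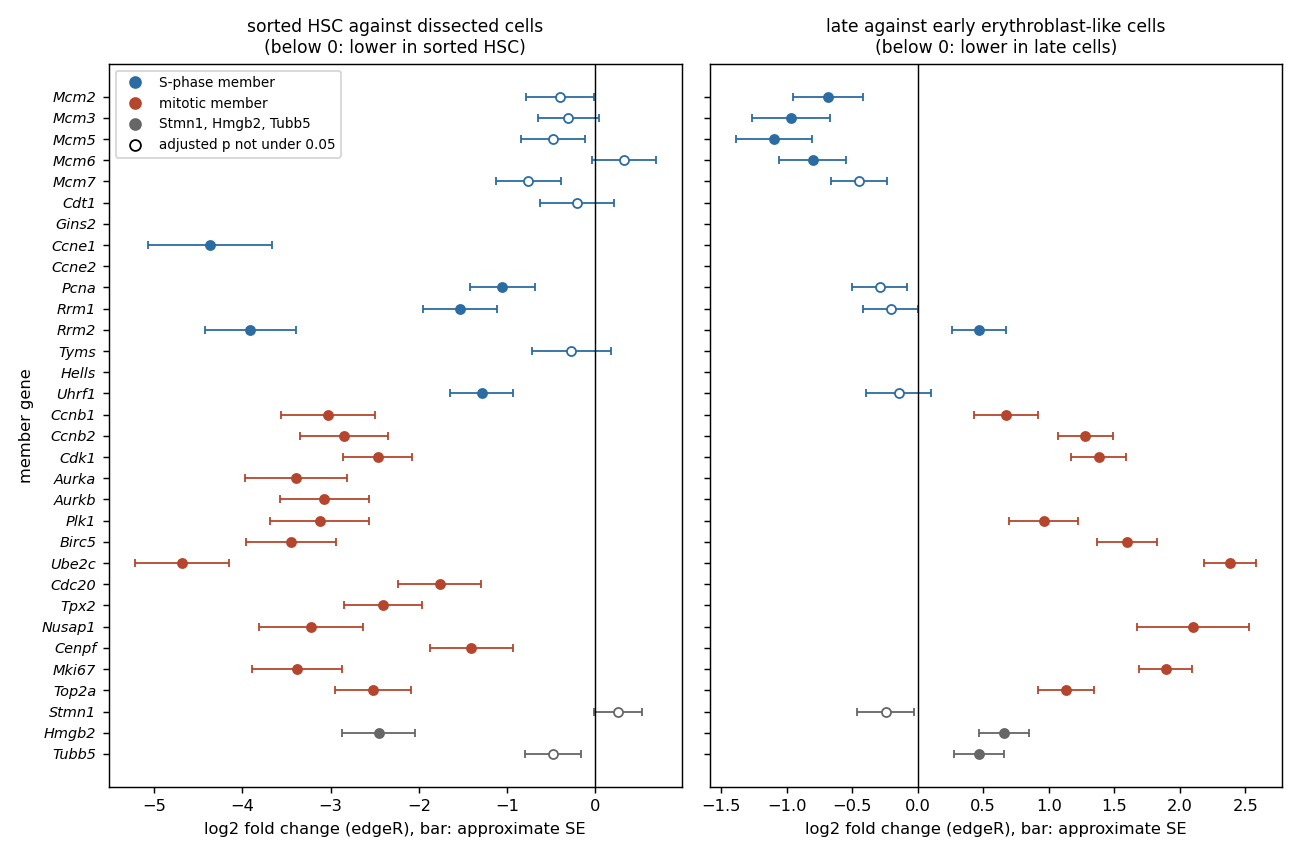
Log2 fold change of each tested gene from edgeR (x axis), sorted HSC against all dissected cells on the left and late against early erythroblast-like cells on the right, with the approximate standard error as a bar. Colours separate S-phase, mitotic and abundant genes, and open points did not reach an adjusted p under 0.05. All 14 mitotic genes lie below 0 on the left, and the 9 tested ones lie above 0 on the right.

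Other genes of the same pathways were taken from further lists, also drawn up with earlier results of these data known. A gene low in HSC could pass the filter on low counts only through the dissected libraries. Directions shared within a list were therefore in part set by that filter. Of 50 further mitotic genes, 37 were tested. Among the 37, 35 were lower in HSC and 0 higher, with a median log2 fold change of -2.17. The most abundant of them, H2afx, Cks1b and Bub3, stood at -1.53, -1.94 and -1.20. Of 32 further S-phase genes, 11 were lower and 1 higher, with a median of -0.79. The most abundant of these, Dut (-0.45), Dnmt1 (-0.24) and Tk1 (-1.01), did not pass. Of 6 tested genes of the G1 cyclins and their kinases, 2 were higher and 3 lower, with a median log2 fold change of -0.82. Only the 2 higher ones are named here. Ccnd2, the cyclin D gene that acts at the entry into the cycle, stood at 322 to 806 CPM in the 4 HSC libraries and 0 to 165 in dissected libraries, with a log2 fold change of 3.01 (SE 0.35, edgeR adjusted p = 2.78e-08). Its kinase gene Cdk4 was also higher, by 1.28 (SE 0.34).

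Each class of the 2 lines was then set against the sorted HSC. These comparisons share the 4 HSC libraries and are not independent of each other, and their filters keep different numbers of genes. A member low in HSC could pass the filter only through its level in the other class. The filter thus favoured members lower in HSC, so that all tested mitotic genes were lower was in part set by it. Against early erythroblast-like cells, where 44.7% of 1082 tested genes were called, 23 members were tested, 19 were lower in HSC and 0 higher. The 9 mitotic genes tested were all lower, and 9 of 11 S-phase genes were too. Rrm2 (-4.26, SE 0.44) and Ube2c (-3.79, SE 0.47) changed most after Ccne1, while Mcm6 (-0.47, SE 0.35) and Mcm3 (-0.75, SE 0.35) did not pass.

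Against late erythroblast-like cells, 78.8% of 534 tested genes were called (36.1% higher and 42.7% lower in HSC), so a call there says little about a single gene. All 11 mitotic genes tested were lower in HSC, with Ube2c at -5.32 (SE 0.55) and Mki67 at -4.05 (SE 0.50). Of 8 S-phase genes, Rrm2 (-4.09), Rrm1 (-1.26) and Uhrf1 (-0.86) were lower and Mcm6 was higher, by 0.89 (SE 0.34, edgeR adjusted p = 0.0156). Mcm6 rests on the scaling, since its mean CPM was 344 over the 4 HSC libraries and 363 over the late libraries, and DESeq2 gave -0.21. Stmn1 was higher in HSC by 1.59 (SE 0.30) and Hmgb2 lower, at -1.88 (SE 0.42).

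Against promyelocyte-like cells, where 41.6% of 1135 genes were called and 26% lower in HSC, 18 members were tested, 9 were lower and 1 (Stmn1, 0.82) higher. All 6 mitotic genes tested were lower, from -3.78 for Ube2c to -1.56 for Top2a, and of 9 S-phase genes only Rrm2 (-2.77, SE 0.41) and Uhrf1 (-1.10, SE 0.38) were. Against myelocyte-like cells, where 73.5% of 550 genes were called (36% higher and 37.5% lower in HSC), 10 of 13 members were lower, all 7 mitotic genes tested among them. Rrm2 stood at -3.05 (SE 0.41) and Rrm1 at -0.99 (SE 0.37). Only 3 of the 15 S-phase genes passed the filter there. Mean levels in HSC and myelocyte-like cells were 253 and 76.5 CPM for Mcm2 and 164 and 85.6 for Mcm3. They were 310 and 148 for Mcm5, 343 and 110 for Mcm6, and 205 and 208 for Mcm7. Against mature neutrophil-like cells, where 79% of 305 genes were called, only the 3 abundant genes were tested. Stmn1 (3.48, SE 0.50) and Tubb5 (2.56, SE 0.44) were higher in HSC, and Hmgb2 (-0.85, SE 0.48) did not pass.

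Within the erythroid line, all 9 mitotic genes that could be tested were higher in late erythroblast-like cells than in early ones, and 4 of 5 helicase genes were lower. The 7 libraries that held at least 5 cells of each class were compared with the library as a block. Of 377 genes tested, 80.9% were called, 42.4% higher and 38.5% lower in late cells, and the members are read against that. Of 21 members tested, 12 were higher and 4 lower. All 9 mitotic genes tested were higher, with a median log2 fold change of 1.38 against -0.09 over all genes. Library totals lowered the median of all genes by 0.34 and called 8 of the 9. The mitotic genes Aurka, Aurkb, Cdc20, Tpx2 and Cenpf were not tested here. The filter on low counts keeps a gene that is high in either class. Members low in early cells, such as Nusap1 (medians 56.6 CPM in early and 425 in late cells), could pass only through late cells. The shared direction of the 9 was therefore in part set by the filter. The mean level of Cdc20 was lower in late cells, at 258 CPM in early (n = 7 libraries) and 176 in late cells (n = 10). Its medians, 150 and 172 CPM, were not. Late means were higher for Aurka (160 and 328 CPM), Aurkb (117 and 224), Tpx2 (241 and 435) and Cenpf (187 and 305).

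Ube2c had the largest rise. Its early and late levels in the same library were 577 and 3927 CPM (replicate 7), 732 and 2877 (replicate 11), 669 and 2696 (replicate 12), 623 and 3247 (replicate 13), 533 and 2497 (replicate 14), 744 and 2399 (replicate 15), and 321 and 1759 (replicate 17). Every late value lay above every early value, and the log2 fold change was 2.38 (SE 0.20, edgeR adjusted p = 2.19e-14). Mki67 ran from 388 over 912 to 1783 CPM in early cells and from 1978 over 3015 to 5459 in late cells of these libraries, again with no overlap (log2 fold change 1.89, SE 0.20, edgeR adjusted p = 1.8e-11). Cdk1 did not overlap either, with 269 to 692 CPM in early and 863 to 1375 in late cells (1.38, SE 0.21). How many of all 377 tested genes had no overlap was not counted, and 80.9% of them were called.

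The other mitotic genes tested followed with smaller changes. Nusap1, which bundles spindle microtubules, stood at 2.10 (SE 0.43), Birc5, the survivin of the passenger complex, at 1.59 (SE 0.23), Ccnb2 at 1.28 (SE 0.21) and Top2a at 1.13 (SE 0.22). Plk1 (0.96, SE 0.26) and Ccnb1 (0.67, SE 0.24, edgeR adjusted p = 0.0103) were each higher in 6 of 7 libraries. Of 50 further mitotic genes, 13 passed the filter on low counts. Of these 13, 11 were higher and 0 lower, among them H2afx (2.35) and Ccna2 (1.17), while Cenpa (0.27) did not pass the test.

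Of 9 S-phase genes tested, 4 helicase genes were lower in late cells, 1 (Rrm2) was higher and 4 did not pass. Cdt1, Ccne1, Tyms, Gins2, Hells and Ccne2 were not tested, and their median levels in these libraries were lower in late cells. Early and late medians were 376 and 142 CPM for Cdt1, 333 and 212 for Ccne1, and 114 and 94.2 for Tyms. They were 91.1 and 0 for Gins2, 60.3 and 0 for Hells, and 36.9 and 0 for Ccne2. Mcm5 went from 845 to 84.4 CPM in replicate 7, 731 to 203 in replicate 11, 727 to 0 in replicate 12, 526.2 to 93.5 in replicate 13, 388 to 190 in replicate 14, 520 to 390 in replicate 15 and 699 to 478 in replicate 17. It was lower in late cells in every library, although the ranges overlapped, and its log2 fold change was -1.10 (SE 0.29, edgeR adjusted p = 0.000657). Mcm3 (-0.97, SE 0.30), Mcm6 (-0.80, SE 0.26) and Mcm2 (-0.69, SE 0.27) were also lower in 7 of 7 libraries, and Mcm7 (-0.45, SE 0.22, edgeR adjusted p = 0.052) just missed the threshold.

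Pcna (-0.29), Rrm1 (-0.21) and Uhrf1 (-0.15) did not pass, and Rrm2 was higher by 0.47 (SE 0.20, edgeR adjusted p = 0.0328), in 4 of 7 libraries. That call was lost under DESeq2 (0.40, adjusted p = 0.086) and under library totals (0.13). Of 8 further S-phase genes tested, 2 were higher (E2f2 at 2.44 and Asf1b at 1.53) and 1, Dut, which removes dUTP, was lower at -2.08. Hmgb2 (0.66) and Tubb5 (0.47) were higher and Stmn1 (-0.25) did not pass.

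**Figure D3:**
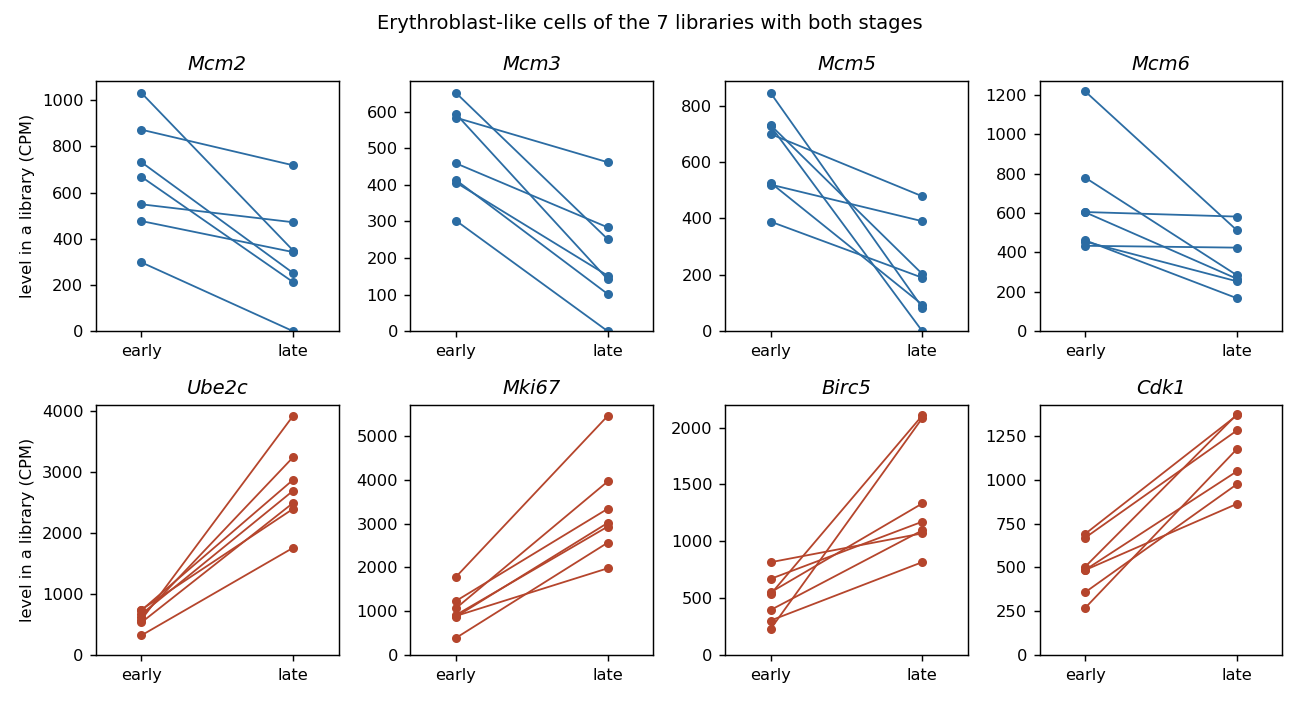
Levels in CPM (linear axes from 0) of 4 helicase genes (upper row) and 4 mitotic genes (lower row) in early and late erythroblast-like cells, with a line for each of the 7 libraries that hold at least 5 cells of both classes. For Ube2c every late value (1759 to 3927) lies above every early value (321 to 744), and Mcm5 falls in all 7 libraries.

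Depth and globin share moved with the erythroid classes, and the part of depth in these differences was not tested. With globin genes left out of the totals, the mitotic sum was 6128 ± 1374 CPM in early (n = 7) and 17594 ± 3667 CPM in late cells (n = 10), still without overlap. The S-phase sum was then 9086 ± 1433 CPM in early and 8639 ± 2258 CPM in late cells, so that most of the gap between the mean S-phase sums (8889 and 6924 CPM with globin) was gone. The fits without globin genes called the same numbers, 9 of 9 mitotic genes higher and 4 S-phase genes lower. The border between the classes also matters, since 34 of the 75 early cells had more Slc4a1 (a late erythroid gene) than Car1 (an early one) and 157 of the 160 late cells did. With classes named from each cell's own markers, 4 of 7 mitotic genes tested were called higher and 1 S-phase gene lower. When cells down to 500 transcripts were clustered too, 121 of the 160 late cells took the early name, 10 of 15 tested members were then lower in late cells and 0 higher, and Cdk1 stood at -1.90.

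Late erythroblast-like cells were not uniform. They came from 2 clusters, and in the larger one of 139 cells the pooled S-phase and mitotic levels were 8269 and 13797 CPM. In the smaller one of 21 cells they were 668 CPM (exact Poisson 95% interval 408 to 1032) and 3106 CPM (2507 to 3805), which covers counting error only. Without the smaller cluster 9 of 9 mitotic genes were called higher in late cells, as with it.

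Within the neutrophil line, 6 of the 9 mitotic genes tested were higher in myelocyte-like than in promyelocyte-like cells, and the 5 members tested in mature neutrophil-like cells were lower there than in myelocyte-like cells. In the 4 libraries with both classes (replicates 10, 11, 15 and 16), the mitotic sum went from 3651 to 5761 CPM, from 1635 to 4212, from 3989 to 5302 and from 4588 to 5616. The S-phase sum went from 3518 to 1732 CPM, from 4080 to 3211, from 2235 to 1830 and from 2007 to 1812. The mitotic sum was thus higher and the S-phase sum lower in myelocyte-like cells in all 4 libraries.

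Of 600 genes tested with the library as a block, 47.7% were called and 24.2% were higher in myelocyte-like cells. Of 15 members tested, 10 were higher and 0 lower, 6 of 9 mitotic genes among them. Only 3 of the 15 S-phase genes passed the filter, so the 0 leaves out most of that group. Median levels of Mcm2 in the 4 libraries were 209 CPM in promyelocyte-like and 69.1 in myelocyte-like cells. In the same order they were 240 and 70.9 for Mcm3, 238 and 99.5 for Mcm5, 214 and 123 for Mcm6, and 277 and 200 for Mcm7. Mki67 read 553, 346, 490 and 438 CPM in promyelocyte-like cells of these libraries and 824, 610, 768 and 662 CPM in myelocyte-like cells. The groups did not overlap, and the log2 fold change was 0.996 (SE 0.25, edgeR adjusted p = 0.000235). Cdk1 (1.22, SE 0.33), Ccnb2 (1.05, SE 0.35), Birc5 (1.03, SE 0.34), Top2a (1.03, SE 0.22) and Ube2c (0.99, SE 0.26) were the other mitotic genes called. Rrm2, at 0.77 (SE 0.25), was the S-phase gene called higher, and Hmgb2 (1.17), Stmn1 (0.91) and Tubb5 (0.47) completed the 10. These calls depended on the scaling: library totals, which lowered the median of all genes by 0.51, left 2 of them, and 6 were called without replicate 11.

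Between mature neutrophil-like and myelocyte-like cells, 6 libraries held both classes and 54.3% of 346 genes were called, 28.3% lower and 26% higher in mature cells. Only 5 members passed the filter and all 5 were lower: Stmn1 (-2.43, SE 0.42), Top2a (-2.34, SE 0.38), Tubb5 (-1.82, SE 0.30), Mki67 (-1.73, SE 0.38) and Hmgb2 (-1.24, SE 0.18). The filter keeps a gene that is high in either class. Members low in mature cells, such as Stmn1 (medians 66.1 CPM in mature and 854 in myelocyte-like cells), could pass only through myelocyte-like cells. Their shared direction was therefore in part set by the filter. With classes named from each cell's own markers, only Hmgb2 could be tested, and it was called lower. Top2a ran from 0 over 90.4 to 570 CPM in mature cells and from 708 over 996 to 1373 CPM in myelocyte-like cells, with no overlap. Hmgb2 remained the most abundant member in mature cells, at a median of 1225 CPM over the 8 libraries with at least 5 cells.

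A lower sum over cells can come from fewer cells with a transcript or from fewer transcripts in each, so the genes were also counted per cell. Of the 245 HSC, 133 (54.3%) had transcripts of 2 or more S-phase genes and 33 (13.5%) of 2 or more mitotic genes. In early erythroblast-like cells these counts were 75 and 73 of 75. In late ones they were 124 (77.5%) and 153 (95.6%) of 160, and 15 late cells (9.38%) had mitotic but no S-phase transcripts. In mature neutrophil-like cells, 31.9% of 94 had 2 or more mitotic genes, but this class is no clean background for cells that no longer divide. By their own markers 61 of its cells were named myelocyte-like, and it holds a cell with 14 mitotic genes (90 tags) and one with 11 (31 tags). An S-phase transcript without any mitotic one was found in 115 HSC (46.9%), in 22.3% of mature neutrophil-like cells and in 1 of 75 early erythroblast-like cells.

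Depth affects such shares, so each cell was also thinned to 1000 tags, which left out 18 late erythroblast-like, 6 mature neutrophil-like and 1 myelocyte-like cells with fewer. The share of cells with 2 or more S-phase genes was then 37.96% in HSC, 11.4% in mature neutrophil-like, 56.4% in myelocyte-like, 64.2% in promyelocyte-like, 73.9% in late and 100% in early erythroblast-like cells. With 2 or more mitotic genes it was 8.57% in HSC, 19.3% in mature neutrophil-like, 62.7% in promyelocyte-like, 75.2% in myelocyte-like, 93.3% in early and 97.2% in late erythroblast-like cells. For mitotic genes the order of HSC and mature neutrophil-like cells depended on the cutoff, since 3 or more were found in 4.49% of thinned HSC and 3.41% of thinned mature cells, and these differences were not tested. By gene, 38.4% of HSC had an Mcm6 transcript, 37.6% Pcna and 31.8% Mcm3, against 9.4% for Mki67 and 2.9% for Ube2c.

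**Figure D4:**
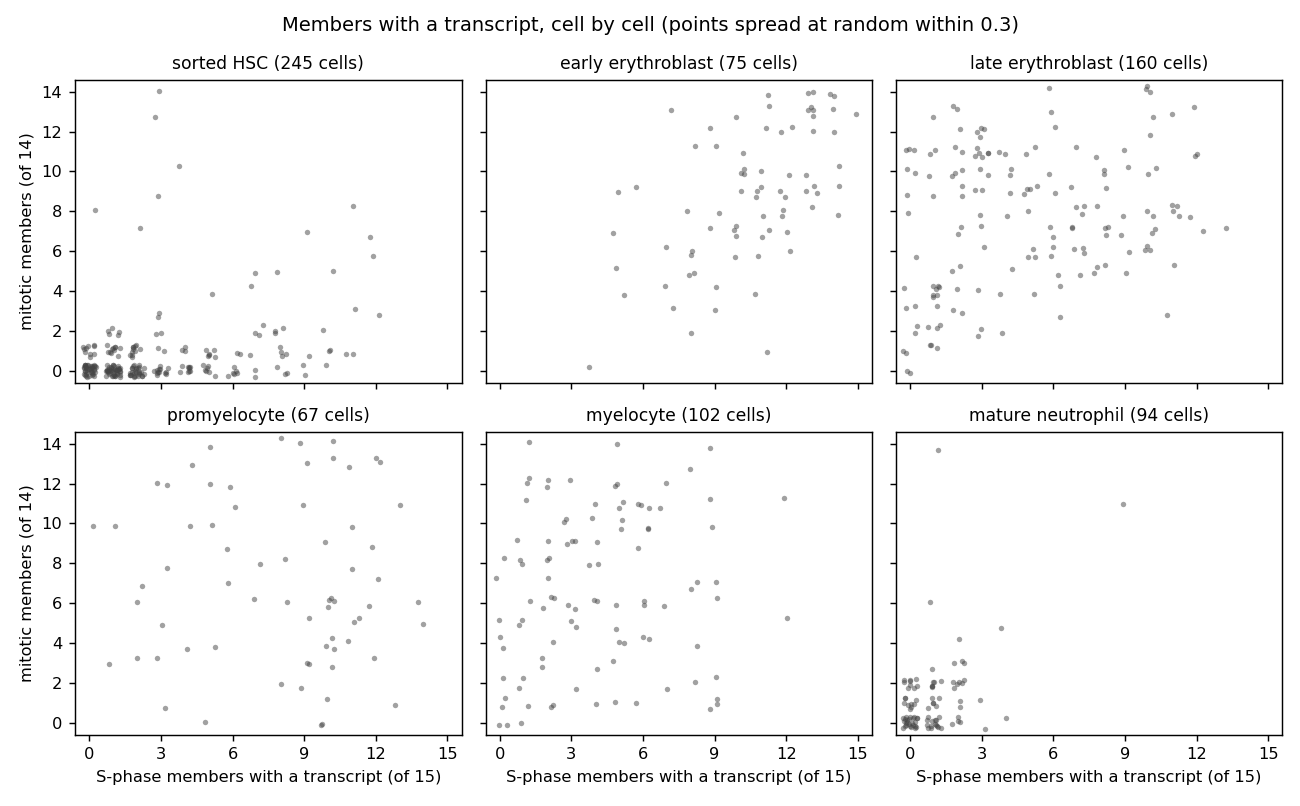
Number of S-phase members (x axis, of 15) and of mitotic members (y axis, of 14) with a transcript in a cell, in a panel for each class, where a point is a cell and points are spread at random to show overlaps. Early erythroblast-like cells fill the upper right, whereas 115 of the 245 sorted HSC lie on the bottom line with S-phase but no mitotic members.

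Mitotic transcripts in HSC sat in few cells. The 25 HSC with the most mitotic tags held 80.2% of all 383 such tags in HSC, and the 25 with the most S-phase tags held 49.4% of 1167. In mature neutrophil-like cells the highest 10 of 94 held 72.2% of 223 mitotic tags. There, 1 cell of replicate 10 held 90 tags, and without that library the mean mitotic sum of the class was 584 in place of 922 CPM.

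Transcripts of 3 or more mitotic genes were found in 19 of 245 HSC, 7.76% (exact Clopper-Pearson 95% interval 4.73 to 11.8%), against 9.57% of mature neutrophil-like cells. They came from all 4 libraries, with 1 cell in replicate 1, 6 in replicate 3, 5 in replicate 4 and 7 in replicate 5. These 19 cells had a median of 7 S-phase genes and 3331 transcripts, and up to 14 mitotic genes. The other 226 HSC had a median of 2 S-phase genes and 1857 transcripts.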

How the data were processed

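Reads were aligned with BWA 0.6.2-r126 to mm10, per the submitters' processing notes. Per the labels' protocols the dissected libraries ran on a NextSeq500, and the sorted HSC on that machine or a HiSeq2500. The authors deposited 1 table of expected counts (estimated transcripts, corrected for molecules that drew the same of 256 tags) for 23536 gene rows and 1915 cells. The deposited per-library files hold counts of a like kind, whose exact unit is not given in the sources used here, and entered 1 alternative. Dissected replicate 18 and sorted HSC replicate 2 were not analysed here. Replicates were numbered in accession order, which pairs nothing across groups.

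Cells with at least 1000 transcripts were kept, and no doublet caller was run because wells were meant to hold single cells. Some wells held transcripts typical of other classes. Globin reached 21.1% of a mature neutrophil-like cell (median 0.393%), and myelocyte markers 8.10% of a late erythroblast-like cell (median 0.241%). Whether such transcripts added to the levels of the members was not tested. Dissected cells were clustered with scanpy 1.11.5 and leidenalg 0.10.2 (2000 variable genes without 136 cell cycle genes, 30 components, 15 neighbours, resolution 1, seed 1) and named from at least 3 raised markers. Whether other genes that follow the cell cycle shaped the clusters was not tested. Estimated transcripts were summed per library and class (at least 5 cells, all 4 libraries for HSC) and rounded. The sums were tested with edgeR 4.0.16 (R 4.3.3; TMM, filterByExpr, robust quasi-likelihood, Benjamini-Hochberg over all genes tested), which was tested on simulated data. SEs are approximate, from the fold change and the F statistic. Stages of a line were compared within libraries, with the library as a block, because cells of both stages come from the same library. DESeq2 1.42.0 was an alternative.

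The members and lists were chosen with earlier results of these data known, and all members are named. Promoters come from RefSeq (GRCm38.p6). Intervals cover counting error only.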

Additional observations from a re-analysis of the deposited data

Results flagged for a closer look

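The summed level of the mitotic genes had 1 library far above the others in 3 of the 12 combinations of a class and a gene group that were checked with Dixon's criterion, and chance flags about 1 in 20 groups. In late erythroblast-like cells, dissected replicate 7 (8 cells) stood at 20331 CPM and the other 9 libraries at 10532 to 15400. In myelocyte-like cells, dissected replicate 8 (5 cells) stood at 8899 CPM and the others at 3324 to 5761. In mature neutrophil-like cells, dissected replicate 10 (14 cells) stood at 3293 CPM and the others at 0 to 1315, with 90 of its 122 mitotic tags in 1 cell. No S-phase sum stood apart in this way.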

How the results depend on the processing

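The mitotic genes stayed below 0 in sorted HSC against dissected cells in every alternative run, with 12 to 14 of 14 called. Counts of called members moved by over 1.5 times as follows. With cells down to 500 transcripts, 6 were called for HSC against late erythroblast-like cells, 10 for late against early erythroblast-like, 6 for myelocyte-like against promyelocyte-like and 3 for mature against myelocyte-like cells. At 2000 transcripts 4 were called for HSC against mature neutrophil-like and 2 for mature against myelocyte-like cells, and late against early was not run there for lack of libraries. With classes from detected markers, counts were 1 for HSC against mature neutrophil-like, 5 for late against early, 5 for myelocyte-like against promyelocyte-like and 1 for mature against myelocyte-like cells. With no filter on low counts they were 17, 22 and 14 for HSC against promyelocyte-like, myelocyte-like and mature neutrophil-like cells, 1 for myelocyte-like against promyelocyte-like and 16 for mature against myelocyte-like cells. Splitting erythroid cells by Car1 above Slc4a1, chosen after seeing the data, left 2 libraries and 3 calls for late against early. For myelocyte-like against promyelocyte-like cells, DESeq2 called 6 and library totals 2. The cause of these shifts was not tested.

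Leaving out each sorted HSC replicate in turn gave 16 to 20 calls for HSC against dissected cells. It gave 17 to 21 against early and 16 to 19 against late erythroblast-like cells. Against promyelocyte-like cells it gave 11 to 15, against myelocyte-like 9 to 15 and against mature neutrophil-like cells 2 to 3. The HSC means then ran from 2210 to 2796 CPM for the S-phase group and from 700.2 to 1487 CPM for the mitotic group. Leaving out each dissected replicate that held both classes gave 6 to 9 calls for myelocyte-like against promyelocyte-like cells, with 6 without dissected replicate 11. In the other comparisons, late against early and mature against myelocyte-like cells among them, calls were not counted with single dissected libraries left out. With no replicate block, 13 members were called for late against early, 5 for myelocyte-like against promyelocyte-like and 5 for mature against myelocyte-like cells.

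Levels moved by over 1 SD at 2000 transcripts, to 9811 CPM for S-phase genes in late erythroblast-like cells, 3537 in HSC and 2839 for mitotic genes in mature neutrophil-like cells, and without globin genes to 17594 for mitotic genes in late erythroblast-like cells. Thinned shares of cells with 2 or more S-phase genes moved to 64.2% in promyelocyte-like, 56.4% in myelocyte-like, 11.4% in mature neutrophil-like cells and 37.96% in HSC, and those of mitotic genes to 62.7%, 75.2%, 19.3% and 8.57%.

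These log2 fold changes turned sign. For HSC against dissected cells, library totals gave Cdt1 0.12, Mcm3 0.028, Tubb5 0.077 and Tyms 0.039, cells above 2000 transcripts gave Cdt1 0.10, Mcm2 0.088 and Tyms 0.44, and leaving out each sorted HSC replicate gave Tyms from -0.54 to 0.19; none of these genes was called. For HSC against late erythroblast-like cells, Mcm6 stood at -0.21 with DESeq2 and -0.040 with the Car1 split. For late against early cells at 500 transcripts, Birc5 stood at -0.90, Ccnb1 -0.15, Cdk1 -1.90, Hmgb2 -0.28, Mki67 -0.14, Rrm2 -2.88, Top2a -1.30 and Tubb5 -2.35. The Car1 split gave Mcm6 0.051, Mcm7 0.41, Pcna 0.11, Rrm1 0.51 and Uhrf1 0.38, and marker classes gave Ccnb1 -0.11. For myelocyte-like against promyelocyte-like cells, Tubb5 stood at -0.14 with marker classes and -0.015 with library totals.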

Other observations

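The genes were also summed in the other classes of dissected cells. Pooled over cells, eosinophil-like cells had 2074 CPM of S-phase and 3681 CPM of mitotic transcripts (47 cells), monocyte and dendritic-like cells 2388 and 4201 CPM (57 cells) and macrophage-like cells 377 and 518 CPM (18 cells). The cluster that could not be named (60 cells, all from dissected replicates 1 to 5) had 3786 and 6593 CPM.

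Across the 44 sums of a class in a library, the S-phase and mitotic levels rose together (Pearson's r 0.583, Spearman's rho 0.668), given as a description since the sums share libraries and classes. Within promyelocyte-like cells the order was the opposite, with r -0.906 and rho -1 over 6 libraries, and within late erythroblast-like cells r was -0.325 over 10.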
